A study of Mus musculus with 18 samples.

Results

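The 9 genes described here are widely used markers of the neutrophil. They were S100a8, S100a9, Retnlg, Ngp, Camp, Ltf, Mmp8, Mmp9 and Csf3r, each matched by its exact symbol to 1 row of the 50600 genes listed for livers taken 1 day after the operation and to 1 row of the 17127 genes listed for livers taken 12 h after it. The study asked how the liver responds to myocardial infarction (MI), produced by tying off the left anterior descending artery of the heart for good, and what the mineralocorticoid receptor (MR, encoded by Nr3c2) of hepatocytes does in that response. All 18 livers came from mice on the C57BL/6 background whose age is labelled week 12, and male mice were used for the operation. At 1 day there were 4 groups of 3 livers. Littermate controls (LC) carried floxed MR alleles without Cre and had a sham operation (LC + sham) or MI (LC + MI), and hepatocyte MR knockout mice (HMRKO) carried the same floxed alleles with Cre driven by the albumin promoter and had a sham operation (HMRKO + sham) or MI (HMRKO + MI). At 12 h there were 2 groups of 3 livers from C57 mice without either allele, after a sham operation (C57 + sham) or MI (C57 + MI). The deletion was in hepatocytes, so the neutrophils of HMRKO mice are expected to carry undeleted MR alleles.

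Neutrophils are made in bone marrow, where successive waves of transcription fill azurophil, then specific, then gelatinase granules, and they circulate until a tissue recruits them. The granule genes are largely silent by the time a cell leaves the marrow, whereas S100a8, S100a9, Retnlg and Csf3r stay highly transcribed in the mature cell. S100a8 and S100a9 encode the partners of calprotectin, a calcium- and zinc-binding complex of the cytosol that acts as an alarmin when released. Retnlg encodes a small secreted resistin-like protein, Ngp, Camp and Ltf encode proteins of specific granules (neutrophilic granule protein, cathelicidin and lactoferrin), Mmp8 and Mmp9 encode a collagenase and gelatinase B, and Csf3r encodes the receptor for granulocyte colony-stimulating factor. In whole liver, a change in the number of neutrophils and a change in the RNA per neutrophil cannot be told apart.

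The regions around the transcription starts of S100a8, S100a9, Retnlg and Mmp8 are printed because these genes had the highest values in the same group of livers. Each is 300 bases from RefSeq (mouse build GRCm38.p6) that run across the annotated start, read in the direction of the gene. Capitals mark the letters TTGCNNAA, a strict form of the C/EBP site, or TATAAA, the core of a TATA box, on either strand. They lie at chr3:90668821-90669120 on the plus strand for S100a8, chr3:90695672-90695971 on the minus strand for S100a9, chr16:48872358-48872657 on the plus strand for Retnlg and chr9:7558179-7558478 on the plus strand for Mmp8.
S100a8: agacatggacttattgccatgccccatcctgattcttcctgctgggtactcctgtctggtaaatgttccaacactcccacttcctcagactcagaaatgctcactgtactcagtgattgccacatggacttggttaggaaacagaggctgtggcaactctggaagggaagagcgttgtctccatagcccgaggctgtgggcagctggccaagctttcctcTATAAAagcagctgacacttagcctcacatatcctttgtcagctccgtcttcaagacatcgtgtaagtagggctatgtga
S100a9: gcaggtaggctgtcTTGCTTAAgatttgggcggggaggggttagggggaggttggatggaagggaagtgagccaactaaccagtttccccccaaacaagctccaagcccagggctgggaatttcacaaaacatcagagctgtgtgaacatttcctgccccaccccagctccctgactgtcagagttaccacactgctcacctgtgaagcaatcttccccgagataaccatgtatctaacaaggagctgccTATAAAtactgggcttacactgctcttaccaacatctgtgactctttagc
Retnlg: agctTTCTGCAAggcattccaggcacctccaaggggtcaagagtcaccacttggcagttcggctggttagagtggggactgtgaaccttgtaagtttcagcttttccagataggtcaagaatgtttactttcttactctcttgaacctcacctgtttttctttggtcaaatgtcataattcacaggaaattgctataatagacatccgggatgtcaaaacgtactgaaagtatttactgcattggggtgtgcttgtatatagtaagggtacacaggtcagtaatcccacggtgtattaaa
Mmp8: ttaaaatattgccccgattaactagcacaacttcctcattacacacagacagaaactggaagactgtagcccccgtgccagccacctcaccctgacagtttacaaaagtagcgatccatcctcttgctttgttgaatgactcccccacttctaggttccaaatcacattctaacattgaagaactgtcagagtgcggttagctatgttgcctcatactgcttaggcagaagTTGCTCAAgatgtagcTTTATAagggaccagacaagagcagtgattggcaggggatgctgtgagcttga
Of the 9 genes, 8 had such a region in the RefSeq table (Mmp9 did not). TTGCNNAA occurred in 5 of the 8 (S100a9, Retnlg, Mmp8, Ngp and Ltf), against 10.8% of 32851 promoter regions of the same length. Counted from the annotated start (0), the match began at -19 in Mmp8, at -236 in S100a9 and at -246 in Retnlg. TATAAA occurred in 3 of the 8, against 13.6% of all promoter regions, at -30 in S100a8, at 0 in S100a9 and, on the opposite strand, at -3 in Mmp8. GAGGAA, a core of PU.1 sites, occurred in 4 of the 8, against 28.3% of all regions. TTCNNNGAA (STAT), GGGNNTTCC (NF-kB) and TGANTCA (AP-1) were found in 0 of the 8, against 8.3%, 5.82% and 7.81% of all regions. These letters describe the sequence and not binding, and a missing match says only that these letters are not in the window.

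Total counts per liver were 19098704 to 28945526 at 1 day. At 12 h they were 1361506 to 2255782 in C57 + sham and 16745645 to 19190405 in C57 + MI, so that the MI libraries were on average 9.6 times deeper, and depth cannot be told apart from the operation there. Levels are given as CPM (counts scaled to the same library total), scaled with the trimmed mean of M values (TMM). A count of 3, taken as the limit that a count of 0 allows, corresponded to 0.104 to 0.168 CPM at 1 day, to 0.204 to 0.211 CPM in C57 + MI and to 1.04 to 1.77 CPM in C57 + sham. These limits, and the 95% Wilson intervals drawn for the 12 h livers, cover counting error only. Mitochondrially encoded genes took 18.9% of the counts of LC + MI replicate 1 and 15.6% of those of HMRKO + sham replicate 2, against 7.53% to 12.3% in the other 10 livers at 1 day. The deleted gene served as a check of the labels. Nr3c2 was at 5.60, 6.70 and 4.71 CPM in LC + sham, 3.56, 2.13 and 1.90 CPM in LC livers after MI, 2.93, 3.76 and 2.55 CPM in HMRKO + sham and 0.895, 1.10 and 0.913 CPM in HMRKO + MI. Each knockout group was below the control group of the same operation without overlap, although counts of whole genes also include cells other than hepatocytes.

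A gene was called where the adjusted p of edgeR's quasi-likelihood test was under 0.05 and the absolute log2 fold change was over 1. The labels number the livers but name no animals, so the p-values measure the spread between these livers. Genes with too few counts were left out of the test, which took about 10 counts at the median library size in at least 3 livers. At 1 day 6 of the 9 genes were tested, and Ngp, Camp and Ltf were not. S100a8, S100a9 and Csf3r reached the limit of 0.425 CPM in all 12 livers. Mmp8 reached it in the 3 HMRKO + MI livers only, Retnlg in those 3 and in 2 of LC + MI, and Mmp9 in those 3 and in 1 each of LC + MI and HMRKO + sham. These 3 genes therefore entered the test through HMRKO + MI, and counts over the 6 genes tested are a description and do not stand for all 9.

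At 1 day the highest levels of S100a8, S100a9, Retnlg, Mmp8 and Mmp9 were found in the HMRKO + MI livers. For S100a8 the livers of LC + sham had 2.91, 1.44 and 0.598 CPM, those of LC + MI 2.61, 4.95 and 2.53 CPM, those of HMRKO + sham 1.30, 2.51 and 1.45 CPM and those of HMRKO + MI 5.98, 7.38 and 7.31 CPM. All 3 HMRKO + MI livers lay above each of the other 9, and the remaining groups overlapped. S100a9 followed the same order of group means, with 3.37, 1.81 and 1.01 CPM in LC + sham, 2.43, 3.42 and 2.59 CPM in HMRKO + sham, 3.01, 6.92 and 3.22 CPM in the LC + MI livers and 11.5, 12.0 and 10.7 CPM in HMRKO + MI. Again only HMRKO + MI stood clear of the other groups. The ratio of S100a9 to S100a8 CPM was 1.16 to 1.69 in LC + sham, 1.15 to 1.40 in LC + MI, 1.37 to 1.87 in HMRKO + sham and 1.47 to 1.93 in HMRKO + MI. The ranges of this ratio did not overlap between LC + MI and HMRKO + MI, and they overlapped between the other groups compared.

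Retnlg was scarce in 3 of the 4 groups. Its levels were 0.287, 0.407 and 0.0747 CPM in LC + sham, 0.126, 0.241 and 0.176 CPM in HMRKO + sham, 0.100, 1.53 and 0.415 CPM in the LC + MI livers and 6.38, 4.24 and 3.96 CPM in HMRKO + MI. These correspond to 21, 12, 52 and 308 counts summed over the 3 livers of each group in that order. LC + MI replicate 2 was apart from the other 2 LC + MI livers, and the HMRKO + MI livers were above all others.

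The metalloproteinase genes were lower still. Mmp8 had 0.144, 0.0370 and 0 CPM in LC + sham, 0, 0.145 and 0.0439 CPM in HMRKO + sham, 0.251, 0.241 and 0 CPM in the LC + MI livers and 1.79, 1.10 and 1.37 CPM in HMRKO + MI, with 5, 4, 11 and 89 counts summed over each group. For Mmp9 the values were 0.215, 0.185 and 0.224 CPM in LC + sham, 0.419, 0.289 and 0.263 CPM in HMRKO + sham, 0.301, 0.442 and 0.138 CPM in the LC + MI livers and 1.29, 1.42 and 1.02 CPM in HMRKO + MI. For both genes the HMRKO + MI livers did not overlap with any other group, and LC + MI overlapped with HMRKO + sham.

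Csf3r, the receptor gene, varied little. Its levels were 5.92, 3.11 and 2.80 CPM in LC + sham, 4.76, 6.03 and 4.12 CPM in LC livers after MI, 4.69, 7.23 and 4.61 CPM in HMRKO + sham and 6.15, 7.01 and 6.04 CPM in HMRKO + MI. HMRKO + MI lay just above LC + MI but within the range of HMRKO + sham, and neighbouring group means differed by less than the spread of the livers in the sham groups.

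The specific granule genes were close to the counting limit in every group at 1 day. Ngp had 0 to 9 counts per liver, with sums of 9 in LC + sham and 9 in LC + MI, and in the knockout 13 after sham and 17 after MI. In the same order Camp had sums of 1, 9, 6 and 5 counts and Ltf of 1, 5, 7 and 3 counts. With no filter on low counts, none of the 3 genes was called in any comparison by edgeR, and the lowest p was 0.0424 (adjusted p = 0.313) for Camp in LC + MI versus LC + sham. Differences between the groups were therefore not detectable at this depth.

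**Figure D1:**
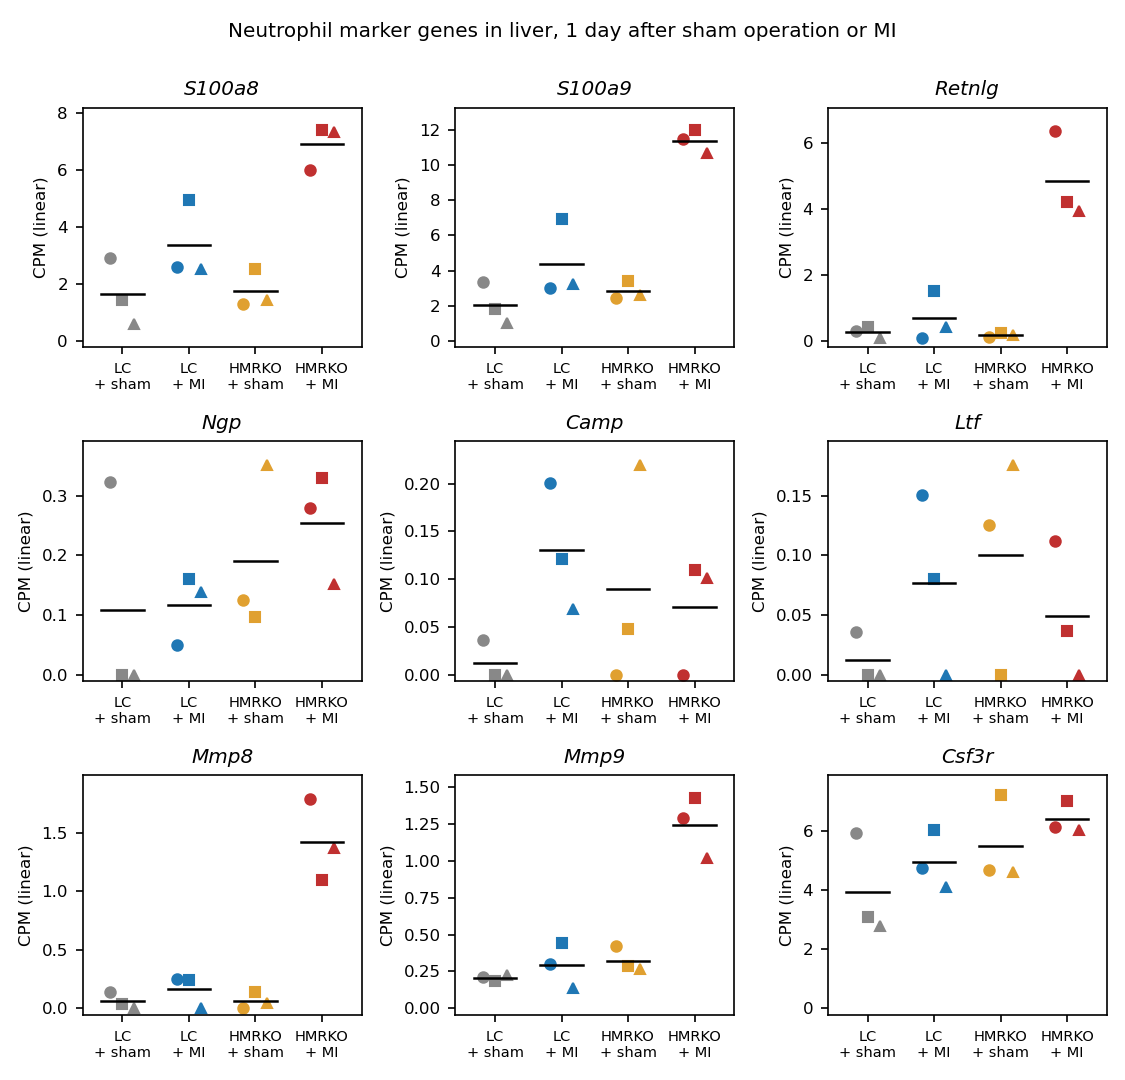
CPM (linear axis) of the 9 neutrophil marker genes in each of the 12 livers at 1 day, with circles for replicate 1, squares for replicate 2, triangles for replicate 3 and a black bar for the mean of a group. The HMRKO + MI livers lie above all other livers for S100a8, S100a9, Retnlg, Mmp8 and Mmp9, and the panels of Ngp, Camp and Ltf show values near the counting limit of 0.104 to 0.168 CPM.

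MI in the LC mice was not accompanied by a called change of these genes. In LC + MI versus LC + sham, 0 of 6 genes were called by edgeR, where 1.44% of 14266 genes were called higher and 1.04% lower. All 6 fold changes were positive, with a median log2 fold change of 1.05 against 0.01 over all genes tested. S100a9 had a log2 fold change of 1.08 ± 0.39 (SE, adjusted p = 0.126, edgeR), S100a8 1.02 ± 0.45 (adjusted p = 0.203) and Retnlg 1.41 ± 0.72 (adjusted p = 0.274), while Mmp8, Mmp9 and Csf3r had adjusted p of 0.542 to 0.62. At an unadjusted p under 0.05 there were 2 (S100a8 and S100a9), and DESeq2 called 0. The 2 groups overlapped for every gene, whereas 12.6% of all genes were higher and 12.1% lower without overlap. LC + sham replicate 1 decided this count, because without it S100a8 (1.71, adjusted p = 0.0482) and S100a9 (1.63, adjusted p = 0.0381) were called. That liver had the highest value of its group for 7 of the 9 genes.

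In the HMRKO mice 5 of the 6 genes rose after MI. In HMRKO + MI versus HMRKO + sham, S100a8, S100a9, Retnlg, Mmp8 and Mmp9 were called higher and 0 lower, where 9.06% of all genes tested were called higher. The median log2 fold change of the 6 was 2 against 0.01 over all genes. Retnlg rose by 4.72 ± 0.72 on the log2 scale (SE, adjusted p = 0.000343, edgeR), S100a9 by 2.02 ± 0.38 (adjusted p = 0.00129) and S100a8 by 1.98 ± 0.45 (adjusted p = 0.00364). Mmp8 rose by 4.44 ± 0.90 (adjusted p = 0.00192, from 4 counts summed over HMRKO + sham) and Mmp9 by 1.92 ± 0.41 (adjusted p = 0.0024). The groups did not overlap for these 5, against 28.2% of all genes that were higher and 27.5% that were lower without overlap. Because Retnlg, Mmp8 and Mmp9 entered the test through HMRKO + MI, this comparison of shares is a description. Csf3r differed by 0.22 ± 0.28 (adjusted p = 0.546) with overlapping groups. The count was 5 without each liver in turn and also without both livers above 15% mitochondrial counts.

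Between the genotypes after MI, 4 of the 6 genes were higher in the HMRKO livers. In HMRKO + MI versus LC + MI, where 4.58% of all genes tested were called higher, the log2 fold change was 3.15 ± 0.77 for Mmp8 (SE, adjusted p = 0.00988, edgeR), 2.80 ± 0.60 for Retnlg (adjusted p = 0.00538), 2.09 ± 0.41 for Mmp9 (adjusted p = 0.00347) and 1.38 ± 0.37 for S100a9 (adjusted p = 0.0151). S100a8 missed the threshold, with 1.04 ± 0.43 (adjusted p = 0.0798), and so did Csf3r, with 0.37 ± 0.28 (adjusted p = 0.338). All 6 genes were higher in HMRKO + MI without overlap, against 24.1% of all genes (24.7% were lower without overlap). Retnlg, Mmp8 and Mmp9 entered the test through HMRKO + MI, so that these counts are a description. The calls of Retnlg, Mmp8 and Mmp9 were kept without each liver in turn. S100a9 was not called without LC + MI replicate 1 (1.18, adjusted p = 0.061), without LC + MI replicate 3 (1.19, adjusted p = 0.0544) or without both livers above 15% mitochondrial counts (1.17, adjusted p = 0.0628), and S100a8 was called when LC + MI replicate 2 was left out (1.43, adjusted p = 0.0416), or LC + sham replicate 1 (adjusted p = 0.0362) or 3 (adjusted p = 0.0382). This comparison and the previous one share the HMRKO + MI livers.

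Without MI the genotypes were not told apart by these genes. In HMRKO + sham versus LC + sham 0 of 6 genes were called by edgeR, where 0.021% of all genes were called higher and 0.00701% lower, and 0 had an unadjusted p under 0.05. DESeq2 called 0. The log2 fold changes ran from -0.51 ± 0.88 for Retnlg to 0.63 ± 0.47 for Mmp9, the one gene whose groups did not overlap, as 5.36% of all genes did in that direction and 5.78% in the other. Mmp8 had -0.03 ± 1.24, the widest error of the 6.

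The difference of the MI response between the genotypes, tested as an interaction, was not called for any of the 6 genes, where 3.96% of all genes were called in the direction of a larger rise in HMRKO and 6.14% in the other. Retnlg was nearest, with an interaction of 3.31 ± 1.07 on the log2 scale (SE, adjusted p = 0.0527, edgeR), followed by Mmp9 with 1.46 ± 0.63 (adjusted p = 0.127) and Mmp8 with 3.18 ± 1.61 (adjusted p = 0.187). S100a8 and S100a9 had 0.96 ± 0.63 and 0.94 ± 0.54, and Csf3r had -0.11 ± 0.40. At an unadjusted p under 0.05 there were 2 (Retnlg and Mmp9). Retnlg was called by DESeq2 (3.33, adjusted p = 0.00977), and by edgeR without LC + MI replicate 2 (4.62, adjusted p = 0.009) or LC + sham replicate 3 (3.73, adjusted p = 0.0417).

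**Figure D2:**
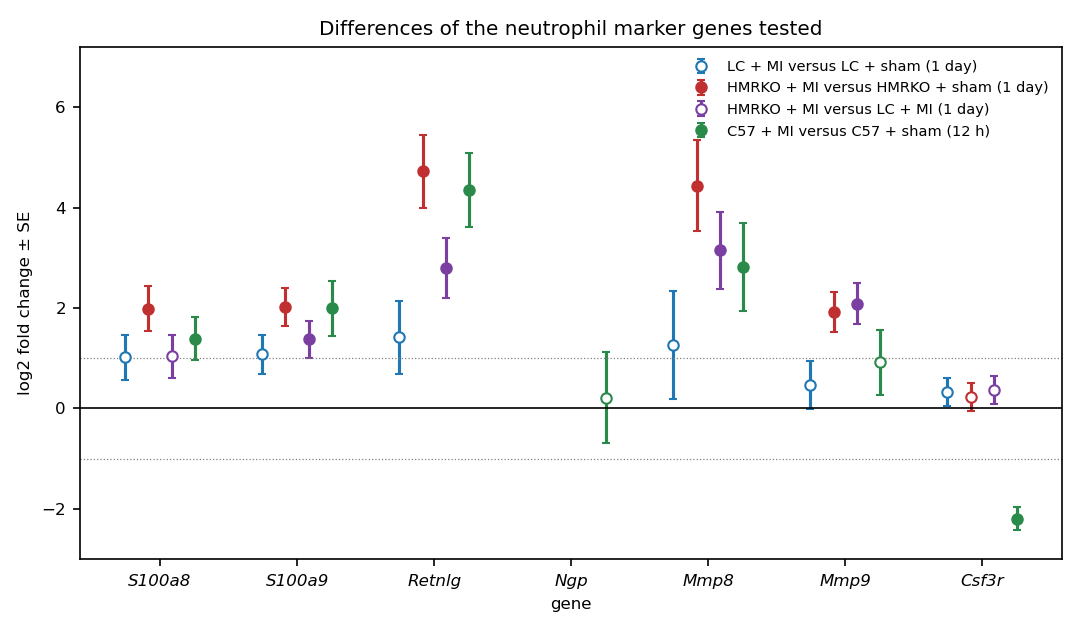
Log2 fold change (points) with its SE (bars) for each neutrophil marker gene tested, in 3 comparisons at 1 day and in MI versus sham at 12 h, with filled points for called genes, open points for the others and dotted lines at an absolute log2 fold change of 1. Blue points (LC mice at 1 day) are all open, red points (HMRKO mice) are filled for all but Csf3r at 0.22, and the 12 h point of Csf3r lies at -2.19.

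At 12 h, S100a8, S100a9, Retnlg and Mmp8 were higher and Csf3r was lower in C57 + MI than in C57 + sham. Of the 9 genes 7 were tested (not Camp and Ltf), of which 4 were called higher and 1 lower by edgeR. Retnlg reached the 12 h limit of the filter (1.05 CPM) in 3 livers of C57 + MI and 0 of C57 + sham, and Mmp8 in 3 and 1, so that these genes entered the test through C57 + MI and the counts over the 7 are a description. In this comparison 25.5% of the 12548 genes tested were called higher and 26.7% lower, so that a call was common. S100a8 had 2.95, 3.56 and 3.47 CPM in C57 + sham (5, 9 and 10 counts) and 5.55, 13.7 and 7.22 CPM in C57 + MI. The log2 fold change was 1.39 ± 0.43 (SE, adjusted p = 0.0145, edgeR). S100a9 had 1.77, 5.14 and 3.13 CPM in C57 + sham (3, 13 and 9 counts) and 7.37, 24.6 and 9.80 CPM in C57 + MI, a log2 fold change of 2 ± 0.55 (adjusted p = 0.00778). The groups did not overlap in CPM for either gene. They did in TPM, the deposited level that corrects for transcript length and takes no TMM factor. S100a8 was at 13.7 to 17.2 TPM in C57 + sham and 17.1 to 41.0 TPM in C57 + MI, and S100a9 at 6.01 to 18.2 and 16.7 to 53.9 TPM. The TMM factors were 1.23 to 1.28 in C57 + sham and 0.756 to 0.851 in C57 + MI, which widened these differences in CPM. Over all genes tested, 37.8% were higher and 34% lower in C57 + MI without overlap in CPM.

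Retnlg had 0, 2 and 1 counts in the C57 + sham livers, each at or below the limit of 3 counts, and 4.84, 14.1 and 7.69 CPM in C57 + MI. The ratio of the pooled counts, scaled to library size, was 21.1 (95% exact interval 7.16 to 103, counting error only), and the log2 fold change of edgeR was 4.35 ± 0.73 (SE, adjusted p = 0.000431). Mmp8 had 2, 1 and 0 counts in C57 + sham and 1.54, 5.11 and 2.72 CPM in C57 + MI, a ratio of 7.43 (2.49 to 36.5) and a log2 fold change of 2.82 ± 0.88 (adjusted p = 0.0154, edgeR). Its groups did not overlap in CPM but did in TPM (0 to 0.80 against 0.70 to 2.25). Mmp9 was at 1.18, 1.98 and 0.347 CPM in C57 + sham (2, 5 and 1 counts) and 1.33, 3.24 and 1.91 CPM in C57 + MI, and its difference of 0.92 ± 0.64 was not called (adjusted p = 0.224, edgeR). Retnlg, unlike Mmp9, was clear of the sham livers in every MI liver.

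Csf3r went the other way. It had 67.2, 58.5 and 42.0 CPM in C57 + sham and 12.4, 14.1 and 9.94 CPM in C57 + MI, a log2 fold change of -2.19 ± 0.24 (SE, adjusted p = 2.39e-05, edgeR). The call was kept under every alternative run, but all of these used the same libraries. The mean of Csf3r was 55.9 CPM in C57 + sham and 3.94 CPM in LC + sham at 1 day, which was processed apart. Whether the shallow C57 + sham libraries, which also differ in composition, account for the high level was not tested. In TPM Csf3r was the highest of the 9 genes in C57 + sham, with 37.7 ± 8.62 (SD, n = 3), ahead of S100a8 at 15.8 ± 1.91 and S100a9 at 11.7 ± 6.15, whose ranges overlapped. In C57 + MI the order was S100a9 with 31.1 ± 19.99, S100a8 with 27.0 ± 12.5, Retnlg with 16.9 ± 8.63, Csf3r with 5.22 ± 0.96 and Ngp with 4.197 ± 2.93. The ranges of the first 3 overlapped with each other, and so did those of Csf3r and Ngp.

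Ngp had 10.6, 2.37 and 0 CPM in C57 + sham (18, 6 and 0 counts) and 1.47, 7.66 and 3.88 CPM in C57 + MI, and its difference of 0.21 ± 0.91 had an adjusted p of 0.847 (edgeR). Camp had 2, 1 and 0 counts in C57 + sham and 2, 3 and 3 in C57 + MI, and Ltf 4, 2 and 0 against 1, 5 and 6. No difference was detectable for Camp and Ltf at this depth.

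Single livers weighed on the 12 h counts. C57 + MI replicate 2 had the highest CPM of its group for 8 of the 9 genes, all but Ltf, and C57 + sham replicate 1, the shallowest library, the highest of its group for 5 (Ngp, Camp, Ltf, Mmp8 and Csf3r). The number of genes called higher by edgeR fell from 4 to 1 without C57 + MI replicate 2, where 3 of the 9 passed the filter on low counts and S100a8 had 0.85 (adjusted p = 0.0794), and to 2 without C57 + MI replicate 3, where 4 passed the filter. It was 3 without C57 + MI replicate 1, C57 + sham replicate 2 (Mmp8 2.80, adjusted p = 0.0533) or C57 + sham replicate 3 (Mmp8 2.14, adjusted p = 0.068).

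The summed level of the 9 markers at 12 h was 49.3 to 88.4 CPM in C57 + sham and 34.7 to 83.0 CPM in C57 + MI, with overlapping groups, and Csf3r alone gave 42.0 to 67.2 CPM of the sums in C57 + sham. Other measures differed between the 12 h groups as well. Of 8 hepatocyte genes tested 6 were called higher in C57 + MI, beside 25.5% of all genes. Alb, the albumin gene, was at 13630 CPM in C57 + sham and 53460 CPM in C57 + MI (log2 fold change 1.97, adjusted p = 0.000521, edgeR). All 4 platelet genes tested were called lower, beside 26.7% of all genes. Their part in the results for the neutrophil genes was not tested.

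**Figure D3:**
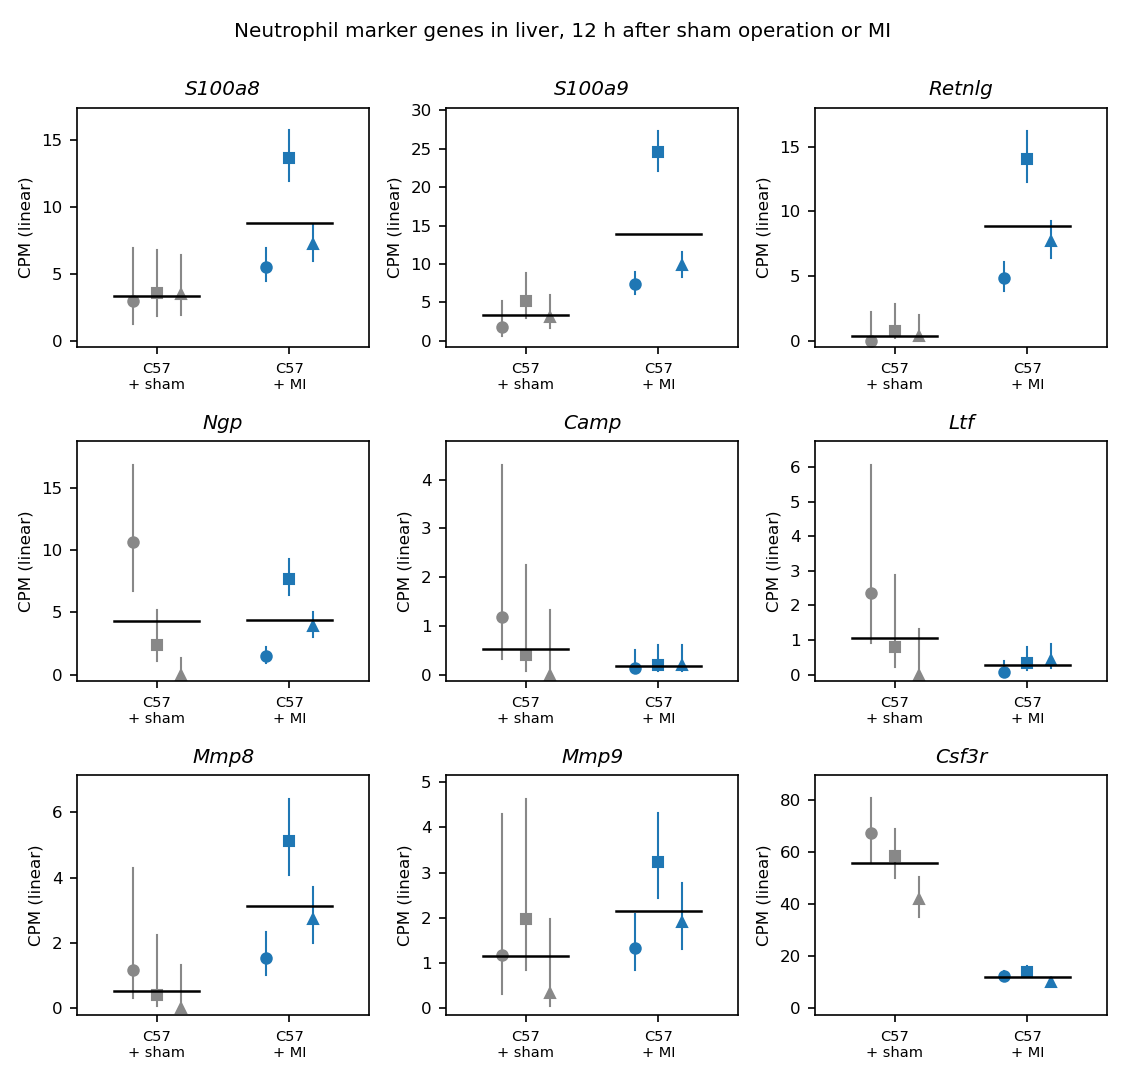
CPM (linear axis) of the 9 neutrophil marker genes in each of the 6 livers at 12 h, with 95% Wilson intervals as vertical lines, circles, squares and triangles for replicates 1, 2 and 3 and a black bar for the mean of a group. Intervals are wide in the shallow C57 + sham libraries, C57 + MI replicate 2 (square) is the highest MI liver in all panels but Ltf, and Csf3r falls from a mean of 55.9 to 12.2 CPM.

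The other genes of the neutrophil were taken from 8 lists of 68 genes in all, of which 44 were tested at 1 day. In whole liver the cells that carried the RNA of these genes were not identified. In HMRKO + MI versus HMRKO + sham 13 of the 44 were called higher and 3 lower, beside 9.06% and 11.4% of all genes. Against LC + MI the HMRKO + MI livers had 9 higher and 2 lower, beside 4.58% and 7.77%. In LC + MI versus LC + sham there were 1 higher and 0 lower, beside 1.44% and 1.04%. Genes with too few counts were left out here too, and some entered the test through HMRKO + MI. Il1r2, for example, had means of 0.048, 0.061 and 0.320 CPM in HMRKO + sham, LC + sham and LC + MI. The counts over these lists are therefore a description of the genes tested and do not stand for the lists. Of the surface receptors, 6 of 11 tested (16 listed) rose in HMRKO + MI versus HMRKO + sham, with a median log2 fold change of 1.14 over the 11. Among them were Il1r2, the decoy receptor of interleukin-1, Cxcr2, the receptor of the neutrophil-attracting chemokines, Itgam (CD11b), C5ar1 and Fcgr4. Il1r2 had 0, 0.145 and 0 CPM in HMRKO + sham and 2.07, 1.72 and 1.07 CPM in HMRKO + MI, a ratio of pooled counts of 36.3 (95% exact interval 12.1 to 179), and a log2 fold change of 5.02 ± 0.72 (SE, adjusted p = 0.000235, edgeR). Cxcr2 rose by 1.55 ± 0.41 (adjusted p = 0.00886) and Itgam by 1.14 ± 0.32 (adjusted p = 0.0116). Without both livers above 15% mitochondrial counts 4 of the 6 were still called, and C5ar1 was not called without HMRKO + sham replicate 1 (1.26, adjusted p = 0.0612) or 2 (1.33, adjusted p = 0.0561). Fcgr4 was below the fold threshold without HMRKO + sham replicate 2 (0.97).

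Against LC + MI, 3 of these 11 receptors were higher in HMRKO + MI, namely Il1r2 (2.34 ± 0.53 on the log2 scale, adjusted p = 0.00715, edgeR), Itgam (1.49 ± 0.32, adjusted p = 0.00574) and Cxcr2 (1.16 ± 0.40, adjusted p = 0.0409). Itgam was at 0.701, 1.17 and 0.554 CPM in the LC + MI livers and 2.18, 2.08 and 2.54 CPM in HMRKO + MI. Its symbol was listed in 2 rows at 1 day, and the values given are those of the first. Il1r2 was at 0.401, 0.282 and 0.277 CPM in LC livers after MI, below all HMRKO + MI livers. Cxcr2 was not called by DESeq2 (adjusted p = 0.0539) or without any one of 8 livers (0.80 to 1.32, adjusted p = 0.0503 to 0.174). Ly6g, the surface antigen by which mouse neutrophils are usually gated, was near the counting limit at 1 day with 2 counts summed over HMRKO + MI and 1 over each of the other groups.

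Granule genes outside the 9 were mixed. Lcn2, lipocalin 2 of specific granules and also an acute-phase gene of hepatocytes, was at 1144, 441 and 2089 CPM in LC + sham, 4450, 5151 and 5027 CPM in LC livers after MI, 908, 1163 and 763 CPM in HMRKO + sham and 8965, 6415 and 4945 CPM in HMRKO + MI. It rose in both genotypes, by 1.99 ± 0.43 on the log2 scale in LC (adjusted p = 0.0215, edgeR) and by 2.84 ± 0.44 in HMRKO (adjusted p = 0.000369), in livers where S100a8 and S100a9 were at most 12.0 CPM. The call in LC was lost without LC + sham replicate 1 (adjusted p = 0.0535) or LC + MI replicate 2 (0.0702) or 3 (0.0681). Chil3, a secreted chitinase-like protein, rose in HMRKO from 0.168, 0.0482 and 0.0878 CPM to 1.23, 2.45 and 2.13 CPM (4.17 ± 0.80, adjusted p = 0.00134, edgeR). Of the azurophil granule genes 2 of 5 were tested and 0 were called higher. Prtn3 (proteinase 3) was at 13.7, 61.9 and 27.7 CPM in HMRKO + sham, 52.1, 37.9 and 37.3 CPM in the LC + MI livers and 2.18, 15.5 and 11.2 CPM in HMRKO + MI, and was lower in HMRKO + MI than in LC + MI by -2.12 ± 0.62 (adjusted p = 0.0222, edgeR), a call lost without LC + MI replicate 1 (-1.94, adjusted p = 0.0656) or HMRKO + MI replicate 1 (-1.66, adjusted p = 0.0536) or 3 (-2.23, adjusted p = 0.0532). Elane (neutrophil elastase) differed by 0.12 ± 0.56 in HMRKO + MI versus HMRKO + sham, and Mpo had 0 counts in HMRKO + MI. The NADPH oxidase genes, 6 of 6 tested, had 0 calls in either HMRKO + MI comparison, with median log2 fold changes of -0.20 against HMRKO + sham and 0.04 against LC + MI. Ncf4, lower in both, was the 1 gene with an unadjusted p under 0.05 (0.0262 and 0.0214).

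Transcription factors listed for granulocyte development moved in both directions. The cells of the liver that carried their RNA were not identified. Cebpa alone had a mean of 243.9 CPM in HMRKO + sham, where the 9 neutrophil markers summed to 9.22 to 14.0 CPM. Runx1 was at 0.377, 0.385 and 0.307 CPM in HMRKO + sham, 0.401, 0.483 and 0.208 CPM in the LC + MI livers and 8.72, 3.69 and 1.37 CPM in HMRKO + MI (3.66 ± 0.60 against each, adjusted p = 0.000539 and 0.00158, edgeR). Cebpd rose from 9.38, 8.67 and 7.07 CPM in HMRKO + sham to 36.6, 24.7 and 28.6 CPM in HMRKO + MI (1.84 ± 0.25, adjusted p = 0.000163, edgeR). Cebpe, which drives specific granule genes in the marrow, was at 13.1, 18.6 and 10.7 CPM in HMRKO + sham and 0.727, 1.75 and 1.93 CPM in HMRKO + MI, and fell by 3.23 ± 0.54 on the log2 scale (adjusted p = 0.000613, edgeR). Cebpa went from a mean of 243.9 CPM in HMRKO + sham to 85.92 CPM in HMRKO + MI (-1.505 ± 0.234, adjusted p = 0.000385, edgeR). Against LC + MI it had -0.815 ± 0.231 (adjusted p = 0.0194, edgeR), short of the fold threshold. Among receptors and inhibitors of the proteins these genes encode, Cd14, a co-receptor of the alarmin receptor Tlr4, was at 1.84, 2.12 and 1.58 CPM in HMRKO + sham, 1.00, 3.30 and 1.21 CPM in the LC + MI livers and 10.2, 7.71 and 3.50 CPM in HMRKO + MI (1.95 ± 0.44 against each, adjusted p = 0.00366 and 0.00674, edgeR). Timp3, an inhibitor of metalloproteinases, was higher in HMRKO + MI by 1.70 ± 0.37 (adjusted p = 0.00272) and 1.81 ± 0.37 (adjusted p = 0.00399). Attractants and adhesion genes had 0 of 8 called in either comparison, with an unadjusted p under 0.05 for Selp in both and for Cxcl1 against LC + MI. Selp was higher than in HMRKO + sham by 0.84 ± 0.29 (adjusted p = 0.0328, edgeR) and missed the call on the fold threshold. Against LC + MI it had 0.65 ± 0.29 (adjusted p = 0.103, edgeR). Cxcl1, a chemokine ligand of Cxcr2, had 1.11 ± 0.47 against LC + MI (adjusted p = 0.0888, edgeR).

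Acod1, which encodes the enzyme that makes itaconate, was among the genes called higher against LC + MI and showed another pattern. It was at 0.0718, 0.0740 and 0.149 CPM in LC + sham, 0.0501, 0 and 0.0692 CPM in LC livers after MI, 0.796, 1.25 and 1.14 CPM in HMRKO + sham and 0.224, 1.13 and 1.12 CPM in HMRKO + MI. Both HMRKO groups lay above both LC groups. The ratio of pooled counts in HMRKO + MI versus LC + MI was 21.6 (95% exact interval 7.02 to 108), with a log2 fold change of 4.21 ± 0.77 (SE, adjusted p = 0.00258, edgeR). The genotypes also differed without overlap after sham (3.37 ± 0.64), where the adjusted p was 0.132, and MI in HMRKO gave -0.33 ± 0.51 (adjusted p = 0.618).

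At 12 h the same lists went in both directions. Of 39 genes tested 10 were called higher and 12 lower in C57 + MI, beside 25.5% and 26.7% of all genes. Among the surface receptors, 3 of 10 tested were higher and 2 lower. The 3 higher, Ly6g, C5ar1 and Il1r2, had 1, 3 and 2 counts summed over the shallow C57 + sham libraries. They entered the test through C57 + MI, so that these counts of genes are a description. Ly6g had 0, 1 and 0 counts in C57 + sham and 27, 58 and 61 in C57 + MI, a ratio of 23.9 (95% exact interval 4.23 to 952). Cxcr2 went from 96.1, 102.4 and 87.2 CPM to 10.5, 8.01 and 6.95 CPM (-3.49 ± 0.22, adjusted p = 3.36e-06, edgeR), and Ptafr, the receptor for platelet-activating factor, from 52.4, 28.9 and 12.9 CPM to 1.61, 1.66 and 0.817 CPM (-4.48 ± 0.50). These receptor genes were lower, as Csf3r was, in every C57 + MI liver. In LC + sham at 1 day the mean was 0.293 CPM for Cxcr2 and 0.663 CPM for Ptafr, far below C57 + sham. The part of library depth and composition in these 12 h differences was not tested. Of the NADPH oxidase genes 4 of 6 were lower, including Cybb (-2.38 ± 0.48, adjusted p = 0.00132, edgeR) and Rac2 (-2.30 ± 0.32, adjusted p = 0.000131). Ncf4, also called lower, was not called without C57 + sham replicate 1 (-1.51, adjusted p = 0.102) or 2 (-1.22, adjusted p = 0.178), or without C57 + MI replicate 1 (-1.45, adjusted p = 0.0619) or 3 (-1.61, adjusted p = 0.0621). Cebpe was lower as well (-4.17 ± 0.25, adjusted p = 3.28e-06, edgeR). Cxcl1 was higher, from 10.02, 9.89 and 17.7 CPM to 169.8, 271.9 and 280.6 CPM (4.24 ± 0.32, adjusted p = 5e-06, edgeR), and Lcn2 was higher by 4.19 ± 0.38 (adjusted p = 9.76e-06).

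**Figure D4:**
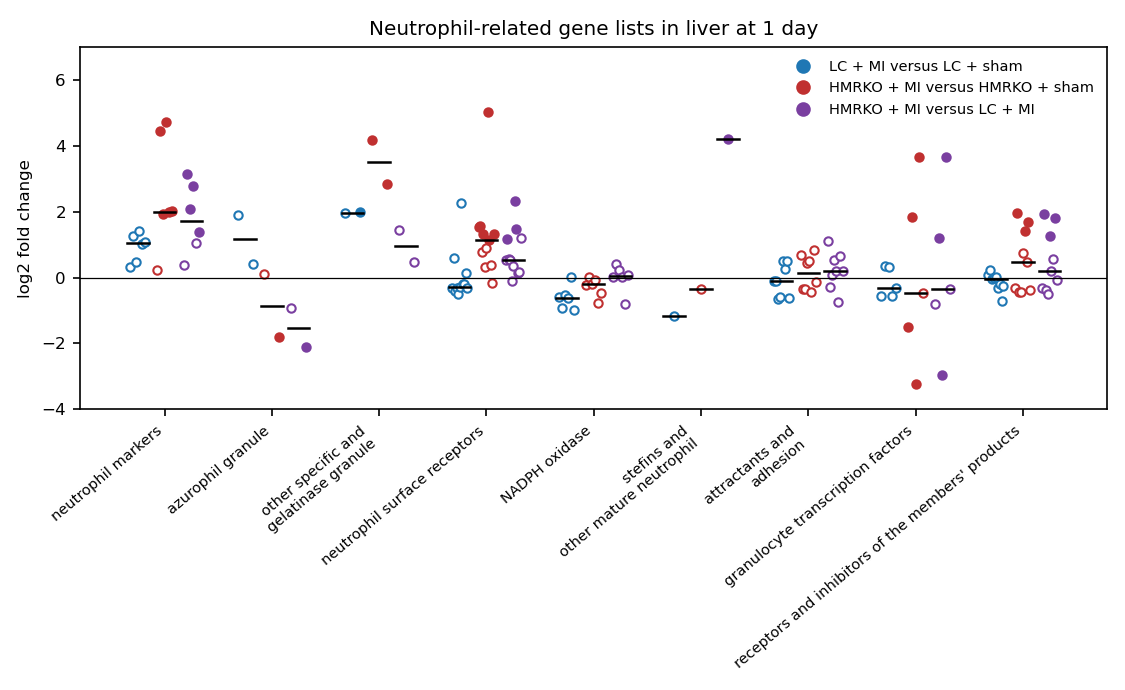
Log2 fold change of each gene tested in the 9 neutrophil markers and in 8 related lists at 1 day, with filled points for called genes, open points for the others and a black bar for the median of a list. The markers have medians of 1.05, 2 and 1.73 in the 3 comparisons, the surface receptors -0.30, 1.14 and 0.54 and the NADPH oxidase genes -0.61, -0.20 and 0.04.

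Markers of other cells were read beside these values. The monocyte list had 0 of 4 genes called by edgeR in each comparison at 1 day (unadjusted p under 0.05 for Ccr2 in LC + MI versus LC + sham and Vcan in HMRKO + MI versus LC + MI), and its summed level (7 genes) was 5.43 to 7.34 CPM in HMRKO + MI, 4.10 to 6.33 in HMRKO + sham and 5.51 to 7.12 in LC + MI. The summed level of the 9 neutrophil markers was 30.7 to 33.6 CPM in HMRKO + MI, 9.22 to 14.0 in HMRKO + sham, 10.6 to 20.5 in LC + MI and 4.71 to 13.2 in LC + sham. In the eosinophil, basophil and mast cell list Epx and Ear1 had 0 counts in all 12 livers, Prg2 had 1, and Ear2 was called higher in HMRKO + MI than in HMRKO + sham (1.35, adjusted p = 0.0417, edgeR). Of the 11 lymphocyte genes 5 were tested. In HMRKO + MI versus HMRKO + sham 3 were called lower (among them Cd79a and Nkg7), beside 11.4% of all genes, and versus LC + MI 2, beside 7.77%. In LC + MI versus LC + sham 0 were called, but all 5 were lower, with a median log2 fold change of -1.27. The groups did not overlap for 4 of the 5, beside 12.1% of all genes that were lower without overlap. The summed level of the 11 was low, at 0.840 to 1.85 CPM in HMRKO + MI and 3.59 to 8.04 CPM in LC + sham. Of the Kupffer cell genes, Marco was called higher in HMRKO + MI than in HMRKO + sham (2.06, adjusted p = 0.0192, edgeR), with overlapping groups. The other 9 were not called but all had negative log2 fold changes, and the median over the 10 was -0.37. Clec4f (-0.84, adjusted p = 0.00157), C1qa (-0.74, adjusted p = 0.0109) and Folr2 (-0.73, adjusted p = 0.0359) were lower at a fold short of the threshold. In LC + MI versus LC + sham 2 of the 10 Kupffer cell genes were called lower, beside 1.04% of all genes. They were Timd4 (-1.34, adjusted p = 0.0283, edgeR) and Folr2 (-1.37, adjusted p = 0.012). The median over the 10 was -0.99, and 9 were lower without overlap, beside 12.1% of all genes. Summed levels were 213.5 to 289.2 CPM in LC + sham and 131.5 to 146.8 CPM in LC + MI. Of 5 erythroid genes tested, the haemoglobin genes Hbb-bs (1.54, adjusted p = 0.0154, edgeR) and Hbb-bt (1.10, adjusted p = 0.0355, overlapping groups) were higher in HMRKO + MI than in LC + MI, and Alas2 was lower in HMRKO + MI than in HMRKO + sham (-1.07, adjusted p = 0.00167). The endothelial gene Lyve1, 1 of 6 tested in its list, was higher in HMRKO + MI than in LC + MI (1.57, adjusted p = 0.0283, edgeR) and than in HMRKO + sham (2.24, adjusted p = 0.00368). The part of these differences in the results for the neutrophil genes was not tested.

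The liver with the highest value of its group was not the same for all markers. LC + MI replicate 2 had the highest CPM of its group for 6 of the 9 genes (S100a8, S100a9, Retnlg, Ngp, Mmp9 and Csf3r), HMRKO + sham replicate 2 for 5, and HMRKO + MI replicate 2 for 6. Within HMRKO + MI, Retnlg, Mmp8 and Ltf were highest in replicate 1. Some of these genes had few counts and no share over all genes was taken. Whether the markers varied together was not tested. The genes closest to the mean profile of the 6 markers tested over the 12 livers at 1 day, by root mean square difference of z-scored log2 CPM, were Ice1, Gnat1, Cdk13, Slc36a4, Wdr5b, Golga2, Bmper and Tapt1, at 0.325 to 0.353. S100a9 itself was at 0.151, S100a8 at 0.275, Mmp8 at 0.344, Retnlg at 0.407, Mmp9 at 0.466 and Csf3r at 0.571. The markers form the mean profile, so that part of their own closeness is built in. At 12 h, over 6 livers and 7 markers, the closest were Alg5, Abca5, Armcx5, Rit1, Manbal, Gcc1, Vps13c and Tnfsf12 at 0.103 to 0.217. All 7 markers were farther from their own mean profile, from 0.272 for Mmp9 to 1.63 for Csf3r. No neutrophil gene outside the 9 was among them, and with so few livers a likeness is a description of these samples.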

How the data were processed

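RNA of 18 mouse livers was sequenced by the study, from TruSeq libraries. For the 1 day livers the authors deposited raw read counts per Ensembl gene. For the 12 h livers they deposited estimated counts beside FPKM and TPM values for Entrez genes. In that table the authors scaled FPKM by library size and length (not used here) and TPM to a fixed total per library. Listed in the submitters' processing notes, without roles, are HISAT2 2.1.0, Bowtie2 2.2.3, DESeq2, TopHat2 and build mm9. How reads were counted, with which annotation and strand, is not given in the sources here, so overlapping genes cannot be separated. The operation of the 1 day MI livers and all times came from the series' design text, since sample labels lack them.

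Estimated counts were rounded (28.2% were not whole). Genes were kept by filterByExpr (minimum count 10, minimum total 15), scaled by TMM and tested by edgeR 4.0.16 (R 4.3.3) in 1 fit over 12 livers at 1 day (14266 genes) and 1 over 6 livers at 12 h (12548 genes), with Benjamini-Hochberg adjustment over all genes tested. Alternatives used DESeq2 1.42.0, limma 3.58.1 on log2(TPM + 1), other filters and scaling, and left out livers. No 2 livers of a group agreed within sampling noise. The test was checked on simulated counts. The 9 genes, the gene lists and the tests were chosen with earlier results of these data known. Named were the 9 genes, up to 4 genes of each other list by smallest p, other called surface receptors, and the nearest profiles. Values of some list genes are not reported here.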

Additional observations from a re-analysis of the deposited data

Results flagged for a closer look

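Genes of the related neutrophil lists with a called interaction of genotype and operation at 1 day (edgeR, adjusted p under 0.05 and absolute log2 fold change over 1) are given here as values. The cells of the liver that carried their RNA were not identified. Runx1 had an interaction of 4.21 (adjusted p = 0.013), from -0.55 ± 0.65 (SE) after MI in LC and 3.66 ± 0.60 in HMRKO. Cebpe had -3.55 (adjusted p = 0.011), from 0.32 ± 0.47 in LC and -3.23 ± 0.54 in HMRKO. Timp3 had 2.40 (adjusted p = 0.0137), from -0.70 ± 0.37 in LC and 1.70 ± 0.37 in HMRKO. Cebpd had 1.48 (adjusted p = 0.0176), from 0.36 ± 0.24 in LC and 1.84 ± 0.25 in HMRKO, and was not called without both livers above 15% mitochondrial counts (1.34, adjusted p = 0.0653). Fcgr3, a receptor for antibodies, had 1.18 (adjusted p = 0.0336), from -0.41 ± 0.23 in LC and 0.78 ± 0.24 in HMRKO, and ranged from 0.95 to 1.42 with adjusted p up to 0.0797 when each liver was left out. The first 3 and Cebpd kept their call without each liver in turn.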

How the results depend on the processing

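In HMRKO + MI versus HMRKO + sham the number of markers called higher was 5 without each liver in turn, and in HMRKO + MI versus LC + MI it was 3 to 5. In LC + MI versus LC + sham it was 0 to 2 and, with no filter on low counts, 1 (S100a9, adjusted p = 0.0338, edgeR). For the interaction it was 0 to 1 without each liver, and 1 (Retnlg) with DESeq2, with no filter and with the replicate number as a block. At 12 h it was 1 to 4 without each liver, and 2 with limma on log2(TPM + 1), where S100a8 was at 0.65 (adjusted p = 0.0894). Both the omission of the 2 livers above 15% mitochondrial counts and that of Gm20594, which took 1.79% to 3.66% of the C57 + sham counts, were chosen after seeing the data. Directions turned for values near 0 that were not called. Csf3r in the interaction (reported value -0.11) was at 0.09 without both livers above 15% mitochondrial counts and -0.53 to 0.13 without each liver. S100a8 in HMRKO + sham versus LC + sham (0.07) was at -0.26 and -0.32 to 0.77 in the same order. Mmp8 there (-0.03) was at 0 with DESeq2, 0.04 with the replicate block and -1.31 to 1.45 without each liver, and Ngp at 12 h (0.21) was at -0.08 with DESeq2 and -0.44 to 1.97 without each liver. The cause was not tested. Livers with the same replicate number had correlations of deviations of -0.17 to 0.18, which shows no pairing but does not exclude one. The replicate block changed no other count of markers by over 1.5 times. Over the alternatives other than leaving out each liver in turn, 295 values of the markers kept their direction and side of the threshold. The direction turned for 5, while 6 were called only in the alternative and 2 lost their call. TMM put the median of all genes at 12 h at 0.11 and RLE at 0.03 (log2), and without such factors it was at -0.54. The 12 h table lists no mitochondrially encoded genes, so the fit without them was not run there. A count of 3 was worth 1.04 to 1.77 CPM in the C57 + sham livers, which limits the low values there.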
